A study of Mus musculus with 14 samples.

Results

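Semaphorins, plexins and neuropilins were followed through messenger RNA libraries of mouse spinal motoneurons, 3 classes of spinal interneuron and progenitors made from embryonic stem cells. The members were all gene rows named as a semaphorin of classes 3 to 7, a plexin or a neuropilin. The rule found 31 genes of 23523, made up of 20 semaphorins, 9 plexins and 2 neuropilins. The study asked what motoneurons lose without microRNA-218 (miR-218), and its libraries were made from RNA with a poly(A) tail.

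Motoneurons came from spinal cords of E12.5 embryos, sorted for green fluorescent protein of the Hb9::gfp reporter, in which the promoter of the motoneuron gene Hb9 (Mnx1) drives GFP. There were 6 libraries of wild-type embryos (WT) and 2 of embryos labelled 218DKO (DKO), which, as known of the study, lack miR-218 from both of its genes. V1, V2a and V3 interneurons of the same stage were sorted for tdTomato, switched on from Rosa26:LSL:tdTomato by En1:cre, Chx10:cre and Sim1:cre respectively, with 1 wild-type library each. Because Cre leaves a permanent label, these sorts hold every cell whose lineage used the driver. A library called pMN came from wild-type embryonic stem (mES) cells on day 4 of differentiation with retinoic acid and a sonic hedgehog agonist, sorted through Olig2:cre and the same tdTomato reporter. A library called NP came from unsorted mES cells at the same day without a reporter. Floor plate cells, also listed, were not analysed here. The labels do not say whether libraries of 1 group came from separate embryos, so p-values measure the spread between these libraries, which may be technical. Where V1, V2a and V3 stand together as a class, their spread is also one between cell types.

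Semaphorins are secreted or membrane-bound guidance signals that make growing axons turn, stall or collapse, and some act as attractants. Plexins are their signalling receptors. Class 3 semaphorins are secreted, and most of them bind neuropilins, which hold the ligand while an A-type plexin passes the signal on. Semaphorins of classes 4 to 7 are tied to the membrane and mostly bind plexins directly. In the spinal cord this family steers motor axons towards the limb and body wall, sets how tightly they bundle, and keeps motoneuron cell bodies inside the cord. Neuropilins also bind vascular endothelial growth factors.

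MiR-218 is made from 2 genes, in introns of Slit2 and Slit3, whose mature sequence is the same. A microRNA pairs with messenger RNAs through its seed, and a match in a 3′ untranslated region (UTR) usually lowers the message. The mature sequence, from RefSeq on GRCm38.p6, lies at chr5:48223966-48223986 and chr11:35616840-35616860, both on the plus strand; it is printed with the seed, bases 2 to 8, in capitals because the DKO libraries were made to show its loss.

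mmu-miR-218-5p: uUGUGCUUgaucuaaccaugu

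Matches to the seed were searched on the transcript strand of 1 annotated 3′ UTR for each member (GENCODE on GRCm38, RefSeq transcripts matched). The classes were an 8mer (AAGCACAA), a 7mer-m8 (AAGCACA) and a 7mer-A1 (AGCACAA), and a 7mer inside an 8mer was not counted again. Such a match was found in 10 of 31 members (32.3%), against 19.3% of 14770 tested genes with an annotated UTR. The median UTR length was 1400 bases in members and 1034 bases in those genes, and a longer UTR holds more matches of any kind. The windows below show 30 bases around the sites of the members discussed with the DKO libraries, with the match in capitals.

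Plxnc1, 8mer, chr10:94792860-94792889, minus strand: agtctccacttAAGCACAAtgatatctaag

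Sema6b, 8mer, chr17:56123852-56123881, minus strand: tcgccacagggAAGCACAAgaaccccctcc

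Plxnb1, 8mer, chr9:109118801-109118830, plus strand: aggagaacttaAAGCACAAtaaggctcagg

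Plxna4, 8mer, chr6:32146776-32146805, minus strand: caattcccaggAAGCACAAgctactcacag

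Sema4a, 7mer-m8, chr3:88436487-88436516, minus strand: ctctcttctgcAAGCACAttgggctgtctc

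Sema3d, 7mer-m8, chr5:12585892-12585921, plus strand: tttgattgctcAAGCACAgcatcatggaca

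Plxna2, 7mer-A1, chr1:194815614-194815643, plus strand: cctctttagtcAGCACAAccttgctgctta

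Sema3a, 7mer-A1, chr5:13600519-13600548, plus strand: aaaattaagacAGCACAAagagaagaaaac

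The Plxnc1 site lies 308 bases after the stop codon in a UTR of 2320 bases, the Sema4a site 155 bases after it in one of 701 bases, and the Sema6b site 131 bases after it in one of 916 bases. Plxna4 and Sema3d hold a second, weaker match, Sema5a holds 1 7mer-m8 and Sema6a holds 2. A match is a description of the sequence and not evidence of binding. Where a gene has several transcripts, the UTR can be that of a minor one. It came from a transcript with 14.2% of the gene's WT signal for Sema4a and, among members without a match, with 6.93% for Sema3b, 8.65% for Sema6d, 15.7% for Sema4d, 23.2% for Sema6c and 25.3% for Nrp2.

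**Figure D1:**
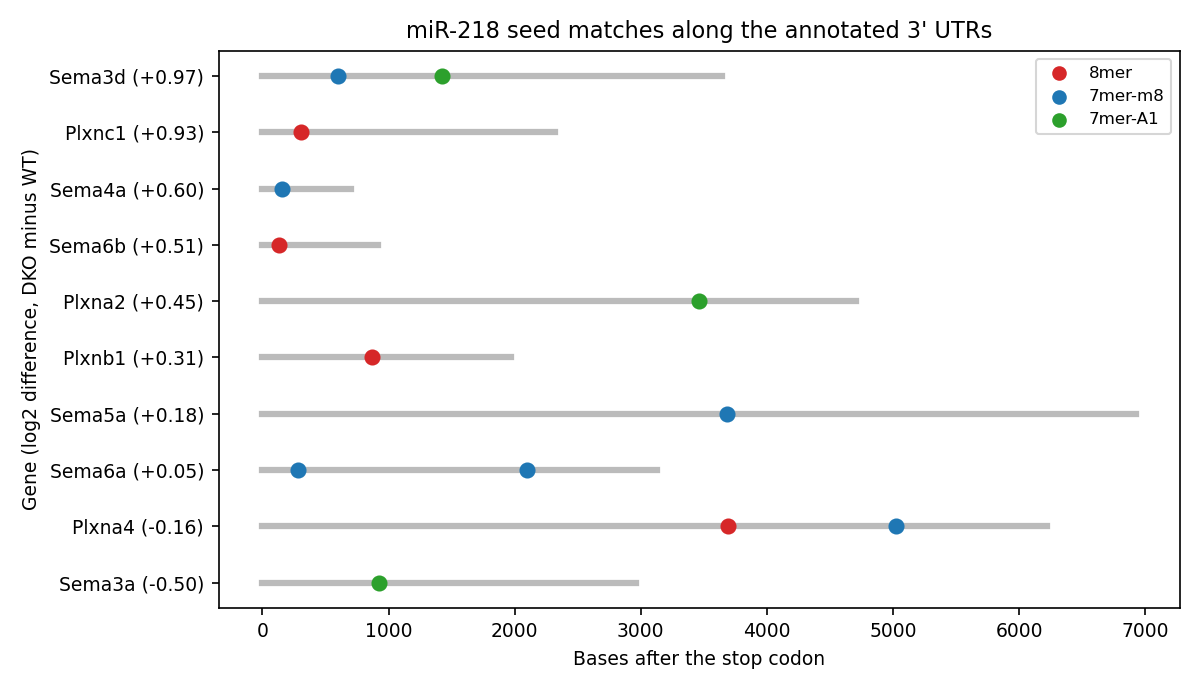
Position of miR-218 seed matches in the annotated 3′ UTRs of the 10 members that hold one. The horizontal axis is the distance from the stop codon in bases, grey bars span the UTR, colours give the class of match, and the number beside each gene is its log2 difference between DKO and WT motoneurons. The 8mer of Plxnc1 sits 308 bases after the stop codon, and 8 of the 10 differences are above 0.

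Values are the deposited signal per gene, an abundance per transcript length scaled between libraries. It is not a read count, but steps among low genes gave an approximate depth of 7.20 M reads in DKO replicate 1 to 27.5 M reads in WT replicate 1, so that 3 reads in a transcript of 2000 bases correspond to a signal of 3.92 and 0.990. Libraries followed their labels in the summed interneuron markers and in Mnx1. The summed V1 markers were at 8702 in V1 and at most 450 in any other library, the V2a markers at 10690 in V2a and at most 1609, and the V3 markers at 5808 in V3 and at most 299.6. Mnx1 lay at 2194 to 4330 in the 8 motoneuron libraries and at 0.775 to 7.46 in interneurons. Another motoneuron marker, Chat, was at 309 in V2a, near the 339 to 500 of WT, but at 8.44 in V1 and 13.9 in V3. Mature miR-218 is not measured in such libraries. Its host messages were higher in DKO, with Slit3 at 571 to 694 in WT and at 3845 and 3571 in DKO (limma adjusted p = 1.02e-06), and Slit2 at 1344 to 2219 and at 3929 and 3894 (0.00566). Summed endothelial markers were 3.31 to 47.3 in WT, 5.60 and 31.4 in DKO, 2.25 in V1, 142 in V2a and 97.2 in V3. Blood markers summed to 4622 in V2a and to at most 620.5 in any WT library, and mesenchymal markers to 833 in V3. Of the progenitor markers, Mki67 was at 63.0 in V2a and 193 in V3, against 2.63 to 17.2 in WT and 5.15 in V1. Top2a, Sox2 and Nes were also higher in V2a and V3 than in any WT library, while Vim and Olig2 were lower. The part of progenitors in the members' differences was not tested. The neural crest and Schwann cell marker Sox10 was at 0 to 5.65 in all 13 libraries.

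WT motoneurons held high levels of both neuropilins and of 1 secreted ligand. Nrp2 had the highest mean signal of the family at 2504 ± 285 (SD, n = 6), followed by Sema3c at 1740 ± 585 and Nrp1 at 1501 ± 232. The ranges of Sema3c (1190 to 2664) and Nrp1 (1230 to 1882) overlapped, so those neighbours were not separated beyond their spread. Nrp2 (2024 to 2784) overlapped with Sema3c too, and was the lower of the pair in WT replicate 2 (2507 against 2664), but lay above all Nrp1 values. Next came the plexin Plxna3 at 1059 ± 185, the transmembrane ligand Sema6c at 940 ± 146, Plxna1 at 918 ± 123 and Sema4g at 878 ± 179, whose ranges overlapped one another.

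A middle group followed. Plxnb2 (622 ± 63.5), Sema4f (563 ± 63.2), Sema6d (559 ± 49.99), Plxnb1 (540 ± 129), Sema4c (512 ± 86.1), Sema7a (454 ± 62.2), Sema6a (420 ± 20.2), Plxna4 (333 ± 47.5) and Sema5b (314 ± 90.6) had a WT mean signal between 314 and 622. Sema6a was the steadiest member over the 6 libraries, with a coefficient of variation of 4.82%. Sema3d, Sema3e, Plxnd1, Sema3b and Sema3g had WT means of 37.8, 41.2, 11.8, 9.52 and 7.41. Plxnb3 was at 0 to 0.329 in WT, at or under the signal of 3 reads in 11 of the 13 libraries, and was not tested.

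**Figure D2:**
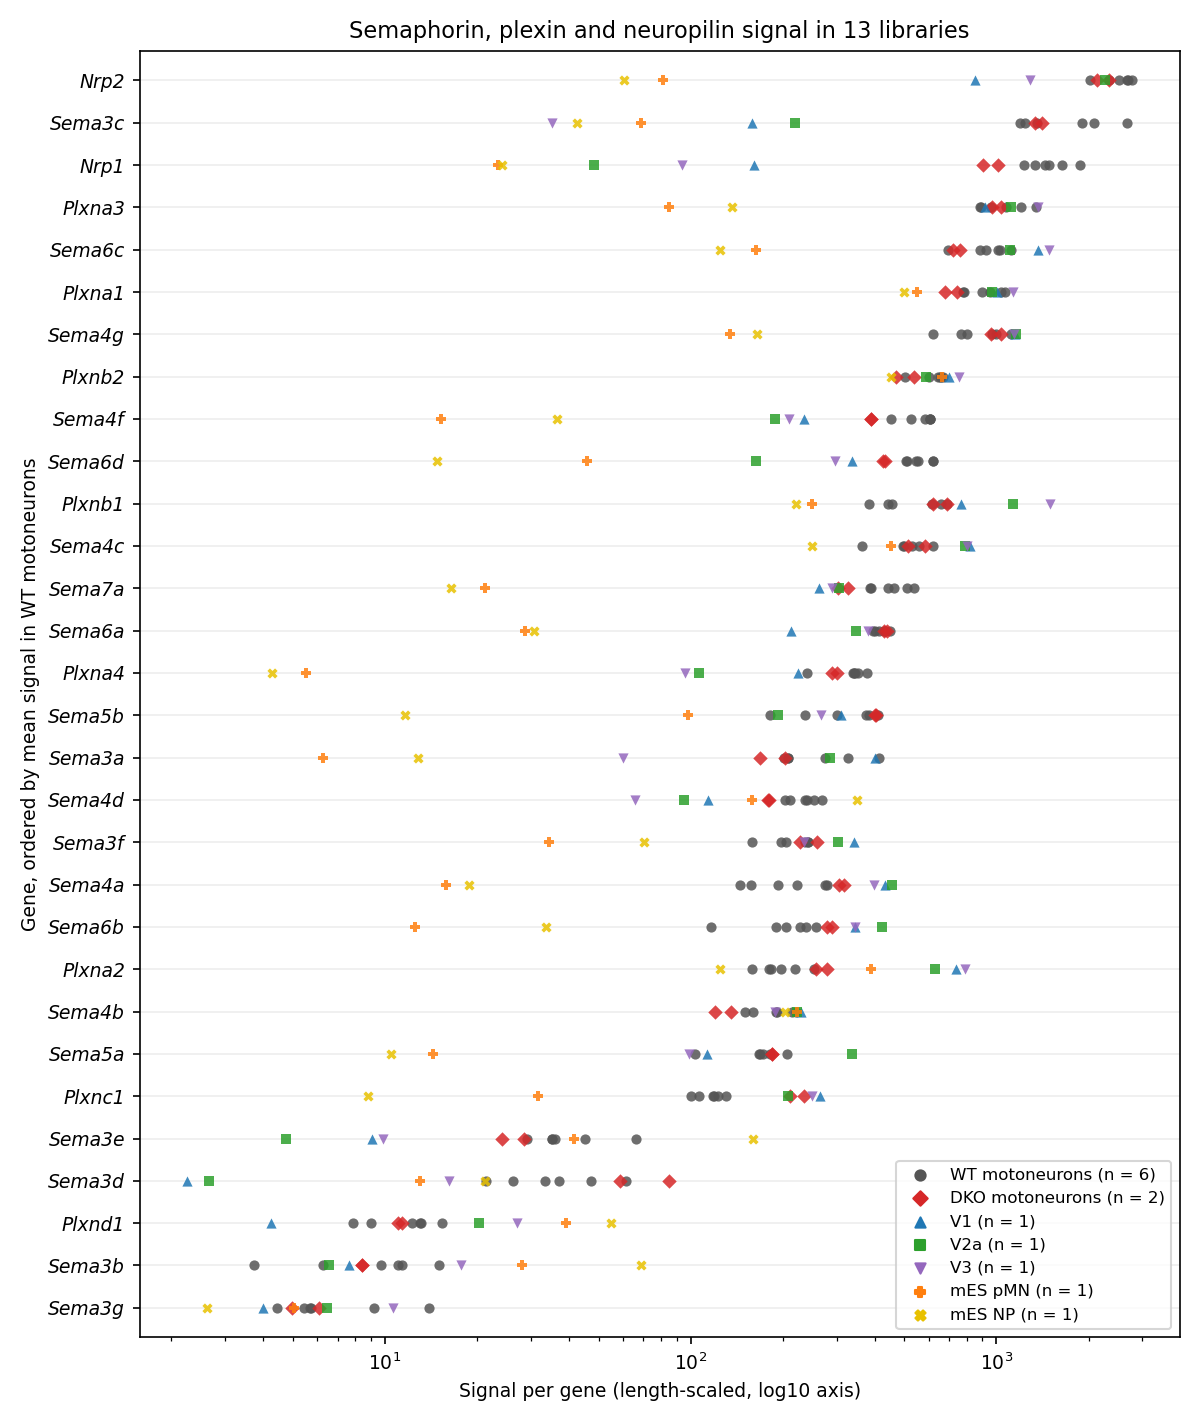
Signal of 30 members in each library, on a log10 axis, with genes ordered by their mean in WT motoneurons and each point 1 library. Nrp2, Sema3c and Nrp1 lead the order in WT motoneurons, and the interneuron points of Sema3c and Nrp1 lie far to the left of the motoneuron points.

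The first comparison asks which members mark motoneurons among ventral spinal neurons. No interneuron type had a second library, so V1, V2a and V3 stood together as 1 class of 3. Genes were tested with limma on log2(signal + 1), and a gene was called at a Benjamini-Hochberg adjusted p under 0.05 over all genes tested. Of 30 members tested, 11 were higher in WT motoneurons, 7 were lower and 12 did not pass. Over all 16486 genes tested, 32.9% passed, 17.7% as higher and 15.2% as lower. The median log2 difference was -0.02 over members and -0.04 over all genes. Groups did not overlap for 10 members above and 7 below the interneurons, against 17% and 16.1% of genes. In bulk samples, fewer cells with a message and less message per cell cannot be told apart.

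Among the co-receptors, Nrp1, which binds Sema3a above all, separated motoneurons most. Its WT signal had a lowest value of 1230, a median of 1462 and a highest of 1882, against 161 in V1, 48.3 in V2a and 93.5 in V3. Every motoneuron library lay above every interneuron library, with a log2 difference of 4.03 (SE 0.29, 16.3-fold, limma adjusted p = 9.31e-06), and the call passed in all 19 alternatives at log2 3.59 to 4.45.

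Nrp2, the co-receptor that prefers Sema3f and also binds Sema3c, was also abundant in interneurons. It had a signal of 2024 to 2784 in WT with a median of 2591, of 852 in V1, 2269 in V2a and 1289 in V3. The V2a value fell inside the WT range, and the class difference was 0.88 (SE 0.24, limma adjusted p = 0.0190). Without the V1 library it was 0.54 (adjusted p = 0.0628), without V3 0.84 (0.0547), and against 3 of the WT libraries alone it did not pass either (0.0561 for replicates 2, 3 and 4 and 0.142 for 1, 5 and 6). Nrp1 made up 37.5% ± 3.5 (SD, n = 6) of the neuropilin signal in WT motoneurons, 15.9% in V1, 2.08% in V2a and 6.76% in V3.

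The A-type plexins, which signal for the neuropilins, went in different directions. Plxna2 was lower in motoneurons, with a WT signal of 159 to 253 (median 190) against 738 in V1, 628 in V2a and 790 in V3. All interneuron values were above all WT values, and the log2 difference was -1.86 (SE 0.15, limma adjusted p = 1.77e-05). Plxna4, a receptor used by Sema3a with Nrp1, was higher, at 240 to 378 (median 344) against 224, 106 and 95.5 (log2 1.32, SE 0.25, limma adjusted p = 0.00275). Plxna1 and Plxna3 did not pass, at log2 differences of -0.18 (95% interval -0.45 to 0.09) and -0.10 (-0.45 to 0.26). Plxna2 held 7.93% ± 1.11 of the A-type plexin signal in WT motoneurons and 22.3% to 25.6% in the interneurons.

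Receptors of the other plexin types were lower in motoneurons or did not pass. Plxnb1, the receptor of Sema4d, had a WT signal of 382 to 687 (median 536) against 766 in V1, 1131 in V2a and 1499 in V3. The groups did not overlap, with a log2 difference of -1.05 (SE 0.24, limma adjusted p = 0.00743), which was -0.74 (0.0635) against WT replicates 1, 5 and 6 alone. Plxnc1, the receptor of Sema7a, had 100.3 to 131 (median 119) against 264, 207 and 249 (log2 -1.04, SE 0.13, limma adjusted p = 0.000303), also without overlap.

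Plxnb2 differed by -0.13 (95% interval -0.39 to 0.13) and did not pass. Plxnd1, known best from endothelium, had 7.87 to 15.4 in WT, 4.25 in V1, 20.3 in V2a and 27.0 in V3. It did not pass over the class, but differed by -0.96 (limma adjusted p = 0.0459) without V1. The V2a and V3 libraries, high in Plxnd1, were also those with endothelial sums of 142 and 97.2, and the part of such cells in this value was not tested.

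Class 3 ligands held the largest differences among semaphorins. Sema3c (chr5:17574281-17730268, plus strand) had a WT signal of 1190 to 2664 (median 1631) against 159 in V1, 219 in V2a and 35.3 in V3. The groups lay far apart, with a log2 difference of 3.94 (SE 0.48, 15.3-fold, limma adjusted p = 0.000269). Sema3c made up 74.0% ± 4.0 of the class 3 signal in WT motoneurons and 9.17% to 26.5% in the interneurons. The summed class 3 signal was 2322 ± 654 in WT motoneurons and 385 to 923 in interneurons.

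Sema3d and Sema3e were higher at a much lower level. Sema3d, at 21.4 to 61.4 in WT (median 35.2), was at 2.25 in V1, 2.66 in V2a and 16.2 in V3 (log2 2.63, SE 0.52, limma adjusted p = 0.00390). Against WT replicates 1, 5 and 6 alone it did not pass (2.23, 0.0571). Sema3e, the ligand of Plxnd1, was at 29.1 to 66.4 (median 35.6) against 9.05, 4.75 and 9.89 (log2 2.25, SE 0.31, limma adjusted p = 0.000523). Neither gene overlapped between the groups.

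The remaining class 3 ligands did not pass. Sema3a, the classical repellent of motor and sensory axons, differed between the interneuron libraries, at 399 in V1, 285 in V2a and 59.9 in V3, against 202 to 413 in WT (log2 0.46, 95% interval -0.62 to 1.55). Sema3f, the repellent read through Nrp2, was at 342, 303 and 235 against 159 to 243 (-0.45, limma adjusted p = 0.0552), and it passed in 5 of the 19 alternatives, 2 of which left out WT replicate 1 (0.0493) or V3 (0.0288). Sema3b (3.73 to 15.1 in WT, 6.57 to 17.7 in interneurons) and Sema3g (4.44 to 13.96 and 3.98 to 10.6) were low throughout.

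Class 4 ligands divided. Sema4f, a transmembrane ligand, had 451 to 607 in WT (median 594) against 235, 189 and 209 (log2 1.41, SE 0.12, limma adjusted p = 2.95e-05). Sema4d, which signals through Plxnb1, had 204 to 268 (median 238) against 114, 95.1 and 65.8 (1.38, SE 0.17, 0.000269). In V1, V2a and V3 the ligand Sema4d was thus lower and its receptor Plxnb1 higher than in any WT motoneuron library.

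Sema4a and Sema4c were lower in motoneurons. Sema4a had 145 to 279 (median 208) against 432, 454 and 396 (log2 -1.05, SE 0.21, limma adjusted p = 0.00405), and Sema4c, a Plxnb2 ligand, 364 to 622 (median 515) against 819, 789 and 802 (-0.67, SE 0.14, 0.00615). Neither overlapped. Sema4b and Sema4g did not pass, at -0.19 and -0.42; without WT replicate 1 the Sema4g difference was -0.49 (0.0299).

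In classes 5 to 7, Sema6d and Sema7a were higher in motoneurons. Sema6d, a Plxna1 ligand, had 506 to 619 (median 549) against 336, 163 and 297 (log2 1.13, SE 0.19, limma adjusted p = 0.00179). Sema7a, the lipid-anchored ligand of Plxnc1, had 384 to 539 (median 452) against 262, 306 and 289 (0.66, SE 0.13, 0.00320). Motoneurons thus held more of this ligand and less of its receptor than any of the 3 interneuron libraries.

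Sema6b and Sema6c were lower. Sema6b had 116 to 257 (median 216) against 344, 423 and 345 (log2 -0.88, SE 0.22, limma adjusted p = 0.0123), and without V2a the difference was -0.78 (0.0550). Sema6c had 692 to 1111 (median 966) against 1370, 1110 and 1487, with overlap at V2a (-0.50, SE 0.15, 0.0270), and it did not pass without V1 (0.0722) or V3 (0.101).

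Sema6a, a ligand of Plxna2 and Plxna4, had 394 to 448 (median 421) against 213, 346 and 379. The difference of 0.46 (SE 0.16, limma adjusted p = 0.0453) rested on V1, since it was 0.21 (0.151) without that library, and it passed in 6 of 19 alternatives. Leaving out V2a (0.0537) or any single WT library (0.0562 to 0.0805) also ended the call. Sema5a and Sema5b did not pass over the class; Sema5a stood at 338 in V2a against 113 in V1 and 98.9 in V3.

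**Figure D3:**
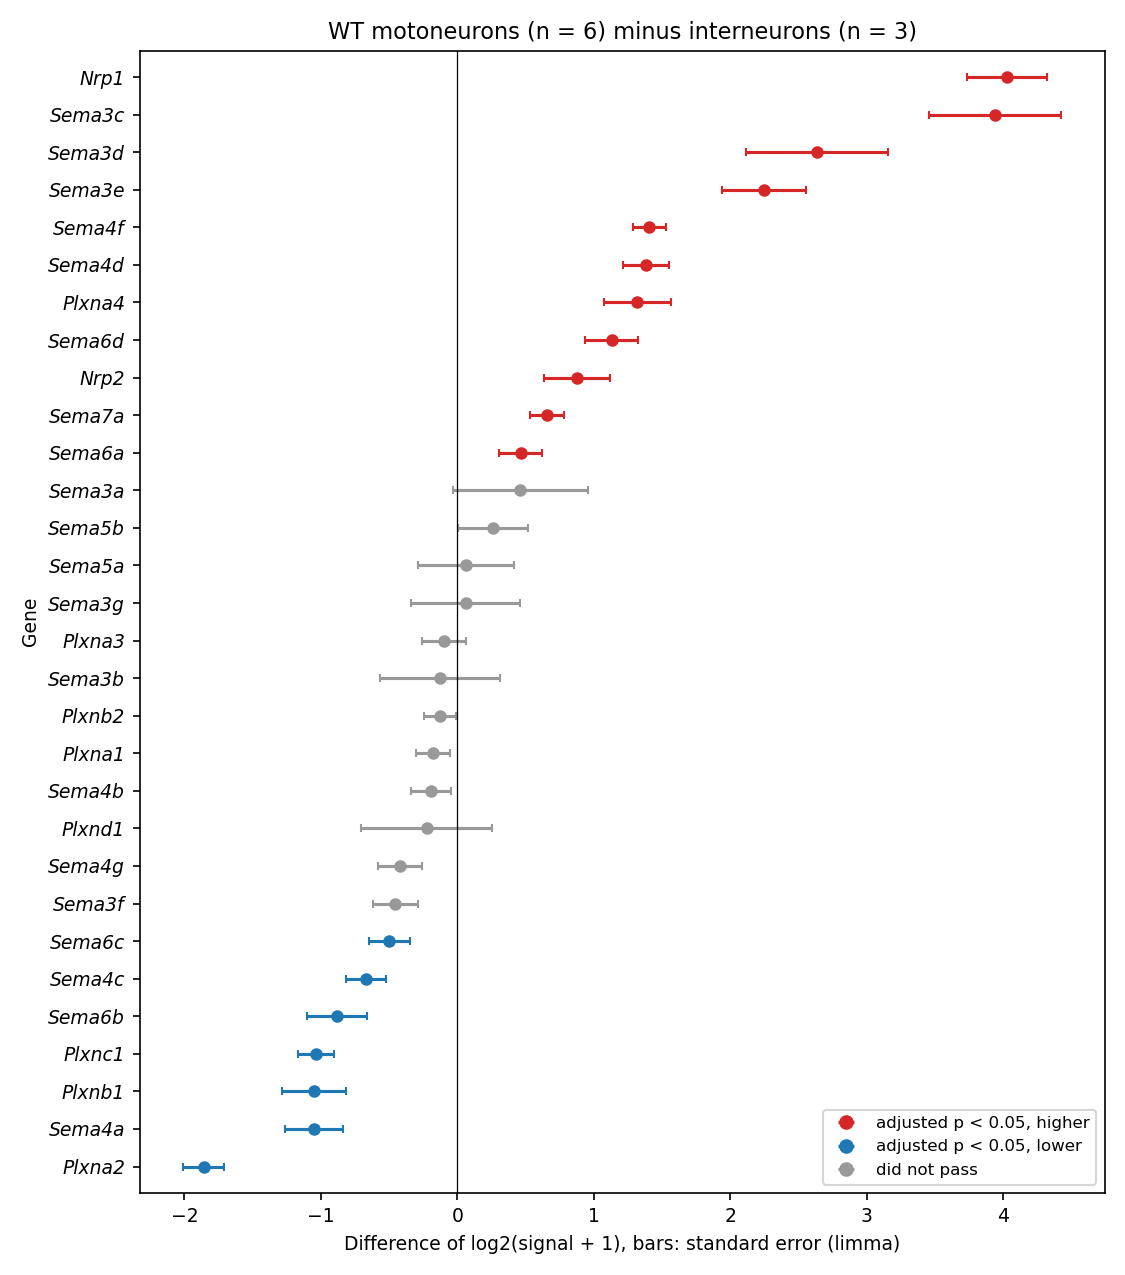
Difference of log2(signal + 1) between 6 WT motoneuron libraries and 3 interneuron libraries for the 30 members tested, with standard errors from limma. Red points passed as higher in motoneurons (11), blue points as lower (7) and grey points did not pass (12), with Nrp1 and Sema3c near 4 at one end and Plxna2 at -1.86 at the other.

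Each interneuron type was also set against the WT mean, with no test because it had 1 library. In V1, 3 members were at least 2-fold higher (11.6% of genes) and 8 at least 2-fold lower (11.4%). The counts were 5 and 8 in V2a (10.7% and 11.1%) and 4 and 8 in V3 (13.8% and 10%). Plxna2 was 3.75-, 3.19- and 4.01-fold higher in V1, V2a and V3. Nrp1 was lowest in V2a (30.2-fold lower than the WT mean) and Sema3c in V3 (45.9-fold lower). Nrp2 was 2.92-fold lower in V1 and 1.93-fold lower in V3, just short of the 2-fold threshold. Sema3a was 4.32-fold lower in V3 alone, and Plxna4 3.08- and 3.43-fold lower in V2a and V3.

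The second comparison asks whether the family differs in motoneurons without miR-218. Its WT libraries are those of the first comparison, so both share them. Of 30 members tested, 1 was higher in DKO, 2 were lower and 27 did not pass. Over all 16260 genes tested, 7.99% passed, 3.22% as higher and 4.77% as lower, so the share of members called, 3 of 30, was near the background. At an unadjusted p under 0.05 there were 12 members and 4286 genes. The DKO libraries did not overlap with WT for 4 members above (Plxnc1, Plxna2, Sema4a and Sema6b) and 8 below (Nrp1, Sema4f, Sema7a, Sema4b, Sema4d, Sema6d, Sema3e and Plxna1), against 14.9% and 15.8% of genes. The median log2 difference was -0.11 over members and 0.00 over all genes.

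Plxnc1 (chr10:94790866-94944835, minus strand, GRCm38) was the member that rose. Its signal was 119, 123, 119, 100.3, 131 and 107 in WT replicates 1 to 6 and 211 and 235 in the DKO libraries. Both DKO values were above every WT value, and the WT spread was narrow (116 ± 11.1, SD, n = 6). The log2 difference was 0.93 (SE 0.14, 1.91-fold, limma adjusted p = 0.00456). It passed against WT replicates 2, 3 and 4 alone (0.96, 0.0125) and against 1, 5 and 6 alone (0.90, 0.00861). With 1 DKO library the size held but the call did not: 1.01 (0.0659) without replicate 1 and 0.85 (0.0923) without replicate 2. The DKO signal of 223 ± 17.3 lay within the 207 to 264 of the interneuron libraries, and its 3′ UTR holds the 8mer shown above.

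Nrp1 (chr8:128358604-128503363, plus strand) fell in DKO. Its signal was 1230, 1882, 1442, 1638, 1336 and 1482 in WT and 1009 and 902 in DKO, so the groups did not overlap. The log2 difference was -0.64 (SE 0.15, 1.56-fold, limma adjusted p = 0.0273), and it passed against both sets of 3 WT libraries (-0.79, 0.0139, and -0.50, 0.0214). It did not pass without DKO replicate 1 (0.158), DKO replicate 2 (0.255) or WT replicate 4 (0.0533), with the spread taken from 11 libraries (0.258) or without a variance trend (0.0708). The DKO level remained above the 48.3 to 161 of the interneurons.

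Nrp2 did not pass, at 2335 and 2124 in DKO within the WT range (-0.16, 95% interval -0.45 to 0.13). The share of Nrp1 in the neuropilin signal was 33.1% to 42.9% in WT and 30.2% and 29.8% in DKO. Their sum was 4005 ± 423 in WT and 3344 and 3026 in DKO, of which the second alone lay below all WT libraries.

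Sema4f (chr6:82911885-82939769, minus strand) was the other member that fell. WT libraries had 527, 451, 607, 582, 607 and 606, and both DKO libraries lay below them at 389 and 388. The log2 difference was -0.53 (SE 0.13, 1.44-fold, limma adjusted p = 0.0334). Leaving out a DKO library (0.229 and 0.228) or WT replicate 3, 4, 5 or 6 (0.0594 to 0.0640) ended the call, as did the use of WT replicates 2, 3 and 4 alone (0.0711) and a fit without a variance trend (0.0745).

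Several ligands were lower in DKO but did not pass, at varied distances from the threshold. Sema7a had 384 to 539 in WT (median 452) and 303 and 328 in DKO, below all of them (log2 -0.51, SE 0.14, limma adjusted p = 0.0511). It passed in 7 of 19 alternatives, among them those without WT replicate 1 (0.0376) or 2 (0.0235). Sema6d (506 to 619 in WT, 431 and 424 in DKO, adjusted p = 0.0623), Sema4b (150 to 221, 135 and 120, 0.0684) and Sema4d (204 to 268, 180 and 179, 0.0970) had DKO values below every WT value as well.

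On the other side, Sema3d had 21.4 to 61.4 in WT (median 35.2) and 58.9 and 85.1 in DKO, with 1 overlapping library (log2 0.97, SE 0.35, limma adjusted p = 0.113). Without WT replicate 2 it passed (1.12, 0.0435). Plxna2 had 159 to 253 in WT and 256 and 280 in DKO (0.45, 0.121), Sema4a 145 to 279 and 305 and 318 (0.60, 0.147), and Sema6b 116 to 257 and 290 and 278 (0.51, 0.222). These 3 genes did not overlap between groups but did not pass.

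For Plxna1 (-0.36, 95% interval -0.67 to -0.06, adjusted p = 0.129) and Sema3e (-0.58, -1.21 to 0.06, 0.233) the DKO values were the lowest of the motoneuron libraries. The remaining members overlapped with WT. Plxna3, Plxna4, Plxnb1, Plxnb2, Plxnd1, Sema3a, Sema3b, Sema3c, Sema3f, Sema3g, Sema4c, Sema4g, Sema5a, Sema5b, Sema6a and Sema6c had log2 differences between -0.50 (Sema3a) and 0.41 (Sema5b). For Sema6a the interval, -0.17 to 0.26, was among the narrowest.

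**Figure D4:**
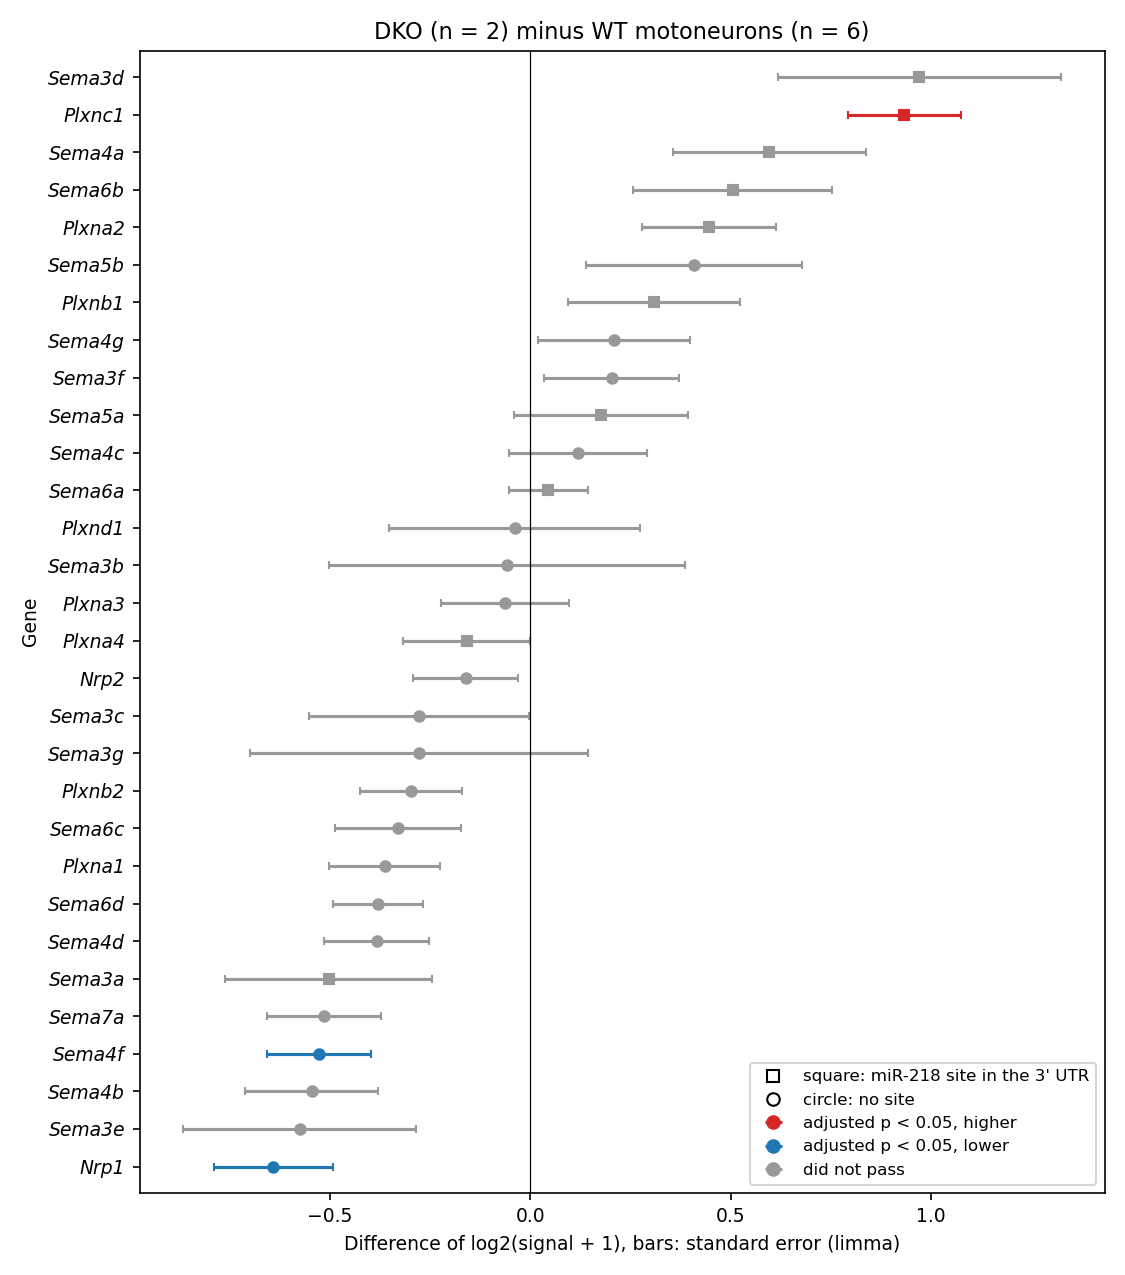
Difference of log2(signal + 1) between 2 DKO and 6 WT motoneuron libraries for 30 members, with standard errors from limma. Squares mark members with a miR-218 match in the 3′ UTR and circles those without. Plxnc1 (red) passed as higher, Sema4f and Nrp1 (blue) as lower, and the 5 highest points are squares.

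Markers of other kinds moved between the same groups. Of the 6 motoneuron markers Prph, a neuronal intermediate filament protein, fell (448 and 459 in DKO against 4826 to 7874 in WT), while the other 5 did not pass. Of the 6 progenitor markers Vim (2150 and 1809 in DKO, 3601 to 5184 in WT) and Top2a fell. Sox2, Nes, Olig2 and Mki67 did not pass. The list summed to 2381 and 2016 in DKO against 3963 to 5403 in WT, and most of that sum was Vim. Vim did not single out progenitors here, since its WT mean of 4292 lay between NP (1501) and pMN (5496). Of the 5 sensory neuron markers Runx1 fell (1.88 and 4.04 in DKO, 6.87 to 14.6 in WT; limma adjusted p = 0.0384). The summed V2a markers (241 and 251 against 72.6 to 240.1) and the summed Schwann cell and neural crest markers (427 and 418 against 140 to 353) lay above every WT library, with 0 genes of either list called. Endothelial, microglial, mesenchymal and blood lists had 0 members called as well. The mesenchymal sum was nevertheless below every WT library (6.51 and 4.46 in DKO, 8.44 to 199 in WT), while the endothelial, microglial and blood sums overlapped. The part of these in the members' values was not tested.

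Seed matches were set beside the DKO differences. Of the 10 members with a match, 8 had a DKO log2 difference above 0, with a median of 0.38, and 1 was called higher. Over all tested genes with a match the share above 0 was 64.8% and the median 0.16. Of the 4 members with an 8mer, 3 lay above 0 (Plxnc1 0.93, Sema6b 0.51, Plxnb1 0.31) and Plxna4 at -0.16, against 78.6% of genes with an 8mer. Among the 20 members without a match, 4 lay above 0 with a median of -0.29, against 44.7% of genes and a median of -0.05. Nrp1 and Sema4f, the members that fell, hold no match. These counts describe 1 contrast over genes, which are not replicates, and no test was made of them.

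The 6 WT libraries were themselves not alike. Replicates 2, 3 and 4 had the highest signal of Rn45s, the ribosomal RNA precursor (10197 to 27943 against 644 to 4275 in 1, 5 and 6). The same sets did not overlap in the summed markers of mesenchyme (8.44 to 13.6 against 54.9 to 199), microglia (4.67 to 6.87 against 16.5 to 138) and endothelium (3.31 to 15.9 against 20.2 to 47.3), and their part in the members' differences was not tested. Between these sets, 3 members did not overlap as higher in 2, 3 and 4 (Sema3a, Sema3c and Sema3d, all class 3 ligands) and 7 as lower (Plxna2, Plxna3, Plxnb1, Sema3b, Sema4a, Sema4g and Sema5b), against 13.4% and 15.9% of genes. Sema3c had 2220 ± 395 (SD, n = 3) in the first set and 1260 ± 83.7 in the second, Sema3a 338 ± 70.0 and 206 ± 3.41, and Sema5b 240 ± 59.0 and 389 ± 18.7.

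Several DKO differences depended on the WT set behind them. For Sema3c, DKO values of 1335 and 1412 gave -0.68 (limma adjusted p = 0.0271) against replicates 2, 3 and 4 alone and 0.13 (0.322) against 1, 5 and 6. Sema3a gave -0.85 (0.0283) and -0.16 (0.369), Plxna2 0.62 (0.0263) and 0.27 (0.179), Sema4a 0.92 (0.0137) and 0.27 (0.163), and Plxnb1 0.62 (0.0213) and 0.00 (0.998). Sema5b gave 0.77 (0.0444) and 0.05 (0.722). Sema3d went the other way, with 0.56 (0.199) and 1.38 (0.0175). Plxnc1 and Nrp1 passed against each set.

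**Figure D5:**
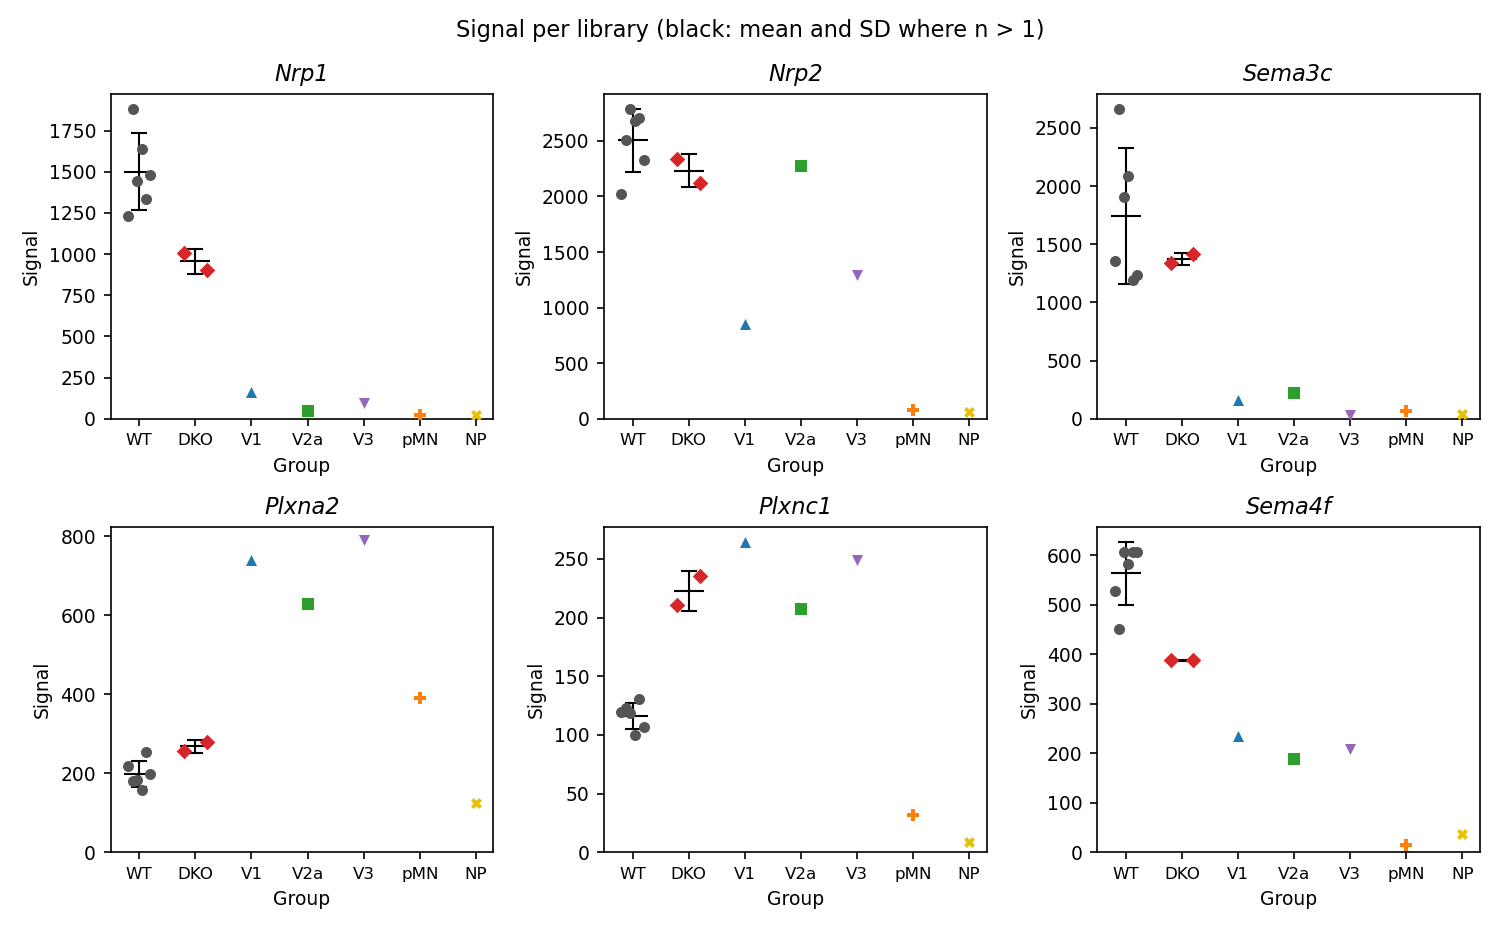
Signal per library of 6 members on linear axes that start at 0, with the mean and SD in black where a group had more than 1 library. Nrp1 and Sema3c are higher in each motoneuron library than in any other library, Plxna2 is low in WT (159 to 253), and the DKO values of Plxnc1 (211 and 235) lie near those of the interneurons.

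In the progenitor libraries most of the family was low. Both mES libraries lay below all 11 neuron libraries for 19 of 30 members (24.7% of genes) and above them for 2, Plxnd1 and Sema3b (30.6%). Against the WT mean, 20 members were at least 2-fold lower in pMN (28%) and 2 higher (28.8%), and in NP 21 were lower (25.5%) and 3 higher (30.1%). Each was 1 library from culture, so these are descriptions.

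Both neuropilins and Plxna4 lay far below motoneurons. Nrp1 had 23.4 in pMN and 24.2 in NP (60.9- and 59.1-fold below the WT mean), Nrp2 81.2 and 60.6, and Plxna4 5.51 and 4.28 (50.8- and 62.6-fold). Plxna3 had 85.1 and 136, and Sema3c 68.7 and 42.6. Plxna1 (548 and 500.04) and Plxnb2 (665 and 450) lay nearer to motoneurons. Plxna1 made up 53.3% and 65.3% of the A-type plexin signal in pMN and NP, against 36.6% ± 3.1 in WT motoneurons.

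Ligands low in both progenitor libraries included Sema4f (15.3 in pMN and 36.4 in NP), Sema7a (21.2 and 16.5), Sema6a (28.8 and 30.7), Sema6b (12.53 and 33.7), Sema4a (15.9 and 18.8), Sema3a (6.25 and 12.8) and Sema5a (14.3 and 10.5). Sema6c (163 and 125), Sema4g (134 and 165) and Sema3f (34.5 and 70.2) were lower than in every neuron library too. Sema4b was at 222 in pMN, just above the WT motoneuron range of 150 to 221, and at 203 in NP, within it. Both values lay above the 135 and 120 of the DKO motoneurons.

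The progenitor libraries differed from one another in 10 members by at least 2-fold, with 4 higher in pMN (8.32% of genes) and 6 lower (16.7%). Sema5b had 97.8 in pMN and 11.7 in NP, Plxna2 389 and 125, Plxnc1 31.6 and 8.80, and Sema6d 45.8 and 14.9. Lower in pMN were Sema3e (41.6 and 159), Sema4d (158 and 349), Sema3b (28.2 and 68.8), Sema3f, Sema4f and Sema6b. The NP values of Sema3e and Sema4d were above every neuron library. Plxnd1 was at 39.1 and 54.8 in pMN and NP, beside endothelial sums of 74.7 and 94.9 and mesenchymal sums of 208 and 463, whose part was not tested. Most of the endothelial sums was Pecam1 (50.9 and 58.2), while Cdh5, Kdr, Cldn5 and Tie1 were each at 2.02 to 18.6.

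The transcript table separated 10 members into several RefSeq transcripts, 34 in all. In the DKO comparison, 52 member transcripts were tested, of which 1 was higher (the single Plxnc1 transcript) and 2 were lower, against 3.19% of all transcripts. Nrp2 NM_001077407 fell from 633 to 320 (log2 -0.96, limma adjusted p = 0.0386), while NM_001077404, with 54.5% of the WT Nrp2 signal, was at 1363 and 1372 (0.02, 0.957). Sema6c NM_001272024 fell from 218 to 107 (-1.02, 0.0117), with its most abundant transcript NM_011351 at 363 and 313. Transcripts of 1 gene share most of their sequence, so the split of reads between them is less certain than the gene values. Nrp1 (0.0665) and the main Sema4f transcript (0.0517) did not pass in this larger set.

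In the interneuron comparison, 12 of 53 member transcripts were higher in motoneurons and 6 lower, against 20% of all transcripts. Of the Nrp2 forms, NM_001077404 (log2 0.93, limma adjusted p = 0.0227) and NM_001077407 (1.48, 0.0227) passed. For Sema4d the higher level was in NM_013660 (199 against 60.7; 1.74, 0.000546), while NM_001281880 did not pass (37.0 against 30.9).

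Partners of the pathway came from a list of 55 genes, with co-receptors, regulators and effectors of plexins, collapsin response mediators, competing ligands and proteases. In DKO, 2 of 54 tested rose and 3 fell, beside 7.99% of genes called in either direction. Chl1, a cell adhesion co-receptor for Sema3a signalling, had 158 to 386 in WT and 688 and 814 in DKO (log2 1.54, SE 0.26, limma adjusted p = 0.00764). Arhgef12, an exchange factor that binds B-type plexins, had 321 to 422 and 650 and 657 (0.85, SE 0.12, 0.00330). Neither overlapped.

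The partners that fell were Itgb1, an integrin subunit and Sema7a receptor (862 to 1424 in WT, 518 and 576 in DKO; log2 -0.98, limma adjusted p = 0.00686), Mical1, a plexin effector that oxidises actin (213 to 312, 153 and 144; -0.90, 0.00672), and Furin, a protease that processes class 3 semaphorins (92.3 to 137, 77.2 and 73.0; -0.63, 0.0405). With a single DKO library none of the 5 partners passed (adjusted p from 0.0604 for Arhgef12 to 0.272 for Furin). Furin was also lost without any 1 of WT replicates 1, 3, 4, 5 and 6 (0.0534 to 0.0709). The 9 collapsin response mediators and their kinases and the 3 competing ligands did not pass.

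Between WT motoneurons and interneurons, 15 of 55 partners were higher and 7 lower, beside 32.9% of genes called. The 4 largest higher were Pgf, a ligand of neuropilin 1 (66.6 ± 16.0 against 19.7 ± 7.7; log2 1.74, limma adjusted p = 0.00109), Itgb1 (1.57, 0.000325), Pdgfa (1.31, 0.00648) and Mical1 (1.29, 0.00464). The 4 largest lower were the small GTPases Rnd3 (767 ± 139 against 3553 ± 1685; -2.09, 0.000538) and Rnd1 (-1.48, 0.000976), with Chl1 (-1.88, 0.00816) and the protease Mmp14 (-1.61, 0.00996). The other partners that were higher were Rap1b (1.08), Mical2 (1.06), Rras (1.04), Met (0.89), Farp1 (0.87), Itga3 (0.84), Dpysl3 (0.80), L1cam (0.78), Rhoa (0.59), Rac1 (0.42) and Gipc1 (0.42), and those that were lower were Dpysl4 (-0.79), Ptk7 (-0.75) and Arhgef12 (-0.66). Several of these calls were lost when 1 library was left out (limma adjusted p). Rac1 was lost without V1 (0.127), V2a (0.0887), V3 (0.0968) or any of WT replicates 2, 3 and 4 (0.0595 to 0.0884), and passed in 7 of 19 alternatives. Rras was lost without V1 (0.125), V2a (0.117) or any of WT replicates 1, 4, 5 and 6 (0.0526 to 0.0677). Gipc1 was lost without V1 (0.148) or any of WT replicates 3, 4, 5 and 6 (0.0573 to 0.0686), Rhoa without V1 (0.0898) and Mical2 without V2a (0.0646).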

How the data were processed

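Poly(A)-selected RNA of 13 libraries was analysed; a floor plate sample was not analysed here. The deposited signal per gene and per transcript is an abundance scaled for length and between libraries by the authors, as the deposited values show (75th percentile 228 to 234 in each library, totals of 6.24e+06 to 9.88e+06); bedtools, DESeq and the mm10 and mm9 builds appear in the submitters' processing notes, and an aligner is not given in the sources used here. In low genes, 77.8% to 82.4% of values lay within 0.1 of a whole multiple of 1 read, which gave only approximate depths, so no count test was run. A pseudocount of 1 was added, genes averaging a signal of 1 or more across the compared libraries were kept, and limma 3.58.1 (R 4.3.3) with a trended prior was fitted over all of them, two-sided, and tested on simulated data. The design assumed counts or normalized values; the form for normalized values was used. Differences of log2(signal + 1) understate the change of low genes, and intervals are at 95%. Single libraries were described with a 2-fold threshold. Members and lists were chosen with earlier results of these data known. Every member is named; values per library are given for members that passed or that differed at least 4-fold in a single library with a signal of at least 50, and partner genes are named if past the threshold. RefSeq sequences were placed on GRCm38, and none is printed from chromosome 18. Alternatives covered pseudocount, filter, scaling, variance prior, the libraries in the fit, the replicate number as a block, and each library left out in turn. The labels do not state that replicate numbers pair WT and DKO libraries, and the main fits did not pair them.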

Additional observations from a re-analysis of the deposited data

Results flagged for a closer look

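Plxna4 in WT replicate 1 stood apart from the other 5 WT libraries, with a signal of 240.4 against 339 to 378. The gap to the nearest library was 0.714 of the range, above Dixon's 95% critical value for 6 samples. This was 1 of 31 groups examined, and chance flags about 1 in 20.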

How the results depend on the processing

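No call of a member or partner gene changed direction in any alternative. In the interneuron comparison, 12 of 18 called members passed in all 19 alternatives, and members called stayed between 16 and 19 in the fits that left out 1 library; partner calls were 19 to 23 in those fits, against 22, and 14 with WT replicates 1, 5 and 6 alone. The DKO comparison depended more on the setting. Against 3 members called, quantile normalization gave 5, limma without a variance trend 1, WT replicates 2, 3 and 4 alone 8 and WT replicates 1, 5 and 6 alone 8. Over all genes the calls also rose with these WT sets, from 1299 to 2452 and 2315, so the rise is not particular to members. With 1 library left out the count ranged from 0 (without either DKO replicate) to 9 (without WT replicate 2: Plxnc1 and Sema3d higher, Nrp1, Plxnb2, Sema4b, Sema4f, Sema6c, Sema6d and Sema7a lower), and was 1 without WT replicate 4. A lone DKO library was assumed to vary like the WT libraries. In those fits far fewer of all genes passed as well, so the loss of calls is not particular to this family. Against 5 partner genes called, the spread of 11 libraries gave 2, the 2 sets of 3 WT libraries 11 and 10, and leaving out 1 library 0 to 10, the lowest without either DKO replicate and the highest without WT replicate 2. The cause was not tested. Of the 27 members that did not pass in DKO, 12 passed in some alternative, and 6 changed sign in some alternative without a call.

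The labels number WT and DKO libraries alike, but same-numbered libraries did not deviate together (correlations of -0.06 and -0.01 over 16260 genes). With 2 DKO libraries this is a weak check, and the labels do not state a pairing. With a replicate block, 0 members and 3 partner genes were called in DKO (limma adjusted p = 0.0951 for Plxnc1, 0.174 for Nrp1 and 0.428 for Sema4f). In the interneuron comparison no pairing could be made, because each interneuron type had 1 library and its label carries no replicate number. Depth matters most for the lowest members. In DKO replicate 1, with about 7.20 M reads, Sema3b and Sema3g had signals of 8.38 and 4.96 where 3 reads correspond to 2.46 and 1.73, and their standard errors in the DKO comparison were 0.44 and 0.42 on the log2 scale. Sema3b ranged from 3.73 to 15.1 among the WT libraries.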
